A study of Homo sapiens with 3 samples.

Results

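The probes Met1h, Met2h, Cys1h and Sec2h measured the human tRNAs for methionine, cysteine and selenocysteine, the amino acids that carry sulfur or selenium. They were taken by name from the array tables and make up 4 of the 41 human tRNA probes. Each had 16 spots per array, and none of these spots carried a flag, although the flags of ratio 2, described below, repeat those of ratio 1. The RNA came from MCF-10A cells, an immortalised human line of breast epithelium that does not form tumours, which received 20 nM of siRNA against eIF3e (the e subunit of translation initiation factor eIF3) or of control siRNA for 72 h. The 3 RNAs from control cells (control RNAs 1, 2 and 3) were labelled with Atto635, and 2 RNAs from knockdown cells (knockdown RNAs 1 and 2) with Cy3. Ratio 1 set knockdown RNA 1 against control RNA 1, ratio 2 set it against control RNA 2, and ratio 3 set knockdown RNA 2 against control RNA 3. The arrays hold no probe for the eIF3e mRNA, so the depletion itself was not checked here. Dyes were never exchanged between knockdown and control, and a separate dye control array, whose RNAs are not given in the sources used here, is the only measure of how each probe reads the dyes.

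Methionine has separate tRNAs for starting a protein and for adding methionine inside it. The initiator tRNA enters the small ribosomal subunit as a complex with eIF2 and GTP, and eIF3 is known to promote this step. Cysteine tRNA reads the codons UGU and UGC, and cysteine forms disulfide bonds, binds iron-sulfur clusters and is a building block of glutathione. Selenocysteine tRNA reads the stop codon UGA as a sense codon in selenoprotein mRNAs, among them those for glutathione peroxidases and thioredoxin reductases. It is charged with serine by seryl-tRNA synthetase, and the serine is then converted on the tRNA through a phosphorylated form into selenocysteine.

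Neither an anticodon nor a sequence is part of a probe's name, so it was not possible to say which methionine tRNA Met1h or Met2h binds. In the RefSeq annotation (GRCh38.p14) nuclear methionine tRNA genes carry the anticodon CAT under 2 symbol series, 11 genes named TRM-CAT and 8 named TRX-CAT, the latter being the symbol of the initiator. Cysteine has 29 genes, all named TRC-GCA. Selenocysteine has 2 entries, TRU-TCA1-1 of 87 bases and TRU-TCA2-1 of 84 bases, in an annotation whose nuclear tRNA genes run from 70 to 108 bases. The mitochondrial genome adds 1 gene each for methionine (TRNM) and cysteine (TRNC). The labels speak of total tRNA arrays at the extraction step, then describe both an abundance and a charging procedure, and list periodate oxidation, a step known to spare charged tRNA, under abundance. The values are therefore described here as amounts of tRNA that could be ligated to the dye.

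Median intensities over the human probes' spots were 2827 in Cy3 for knockdown RNA 1 and 2150 for knockdown RNA 2, and 1586.5, 1305 and 699 in Atto635 for control RNAs 1 to 3. In 56 of its 57 columns the table of ratio 2 repeats that of ratio 1, and the remaining column holds the Atto635 values. The spot flags of ratio 2 are among the repeated columns, so whether spots of control RNA 2 were flagged is not known. For Sec2h the spots' Cy3 and Atto635 intensities had a correlation of 0.993 over its 16 spots in ratio 1 and of 0.990 in ratio 3, but of -0.041 in ratio 2. The same values were 0.976, 0.902 and 0.067 for Cys1h, 0.918, 0.904 and 0.415 for Met2h and 0.994, 0.859 and 0.140 for Met1h. In ratio 2 the Cy3 and Atto635 values of the same spot thus did not vary together as they did elsewhere. Values based on the median of each channel, which do not pair the spots, are given below where they changed a call.

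Met1h was the brightest of the 4 probes on every array. Its median background-subtracted Cy3 intensity was 7025 for knockdown RNA 1 and 4731 for knockdown RNA 2, and its median Atto635 intensity was 4089, 3414.5 and 1700.5 for control RNAs 1 to 3. It ranked between 6 and 7 among the 41 human probes in either channel of the 3 ratios. Cys1h had medians of 5098 and 3838.5 in the knockdown RNAs and of 3439, 2668.5 and 1478 in the control RNAs, with ranks from 8 to 11. Their lowest single spot in the 3 ratios read 3241 in Cy3 and 1518 in Atto635 for Met1h and 2643 and 1048 for Cys1h.

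Met2h lay in the middle of the array, with medians of 2273.5 and 1597 in the knockdown RNAs and of 1368, 1239.5 and 610.5 in the control RNAs. Sec2h was among the dimmest human probes, ranking 38 to 40 of 41. Its medians were 556 and 351.5 in the knockdown RNAs and 333, 270 and 118 in the control RNAs, and single spots fell to 141 in Cy3 and to 2 in Atto635, the latter in ratio 2. Brightness depends on how well a probe binds and on the copies of tRNA alike, so these intensities do not order the tRNAs by amount.

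None of the 4 probes passed the test for a difference between knockdown and control on the scale of the spiked standards, which are synthetic tRNAs added in equal amounts (4 pmol each to 2 µg of RNA). Expressed as log2 of Cy3 over Atto635, Met1h was at 0.10, 0.20 and 0.27 in ratios 1 to 3, above 0 in each. Its fitted ratio was 1.15-fold (log2 0.20, SE 0.13, 95% interval -0.06 to 0.47, limma adjusted p = 0.228). It was called higher without ratio 1 (log2 0.24, limma adjusted p = 0.00165) and with ratios 1 and 2 averaged (0.21, adjusted p = 0.0226). Met2h was at 0.00063, 0.08 and 0.17, with a fitted ratio of 1.07-fold (log2 0.10, SE 0.13, interval -0.17 to 0.36, limma adjusted p = 0.526). Both methionine probes were thus above the median of the 4 standards in all 3 ratios, Met2h by next to nothing in ratio 1. The standards themselves were spread around that median. Yeast Phe-3 was at 0.31, 0.31 and 0.40, above both methionine probes in each ratio, and E.c. Ala-5 was at -0.17, -0.07 and -0.04.

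Cys1h was at -0.10, 0.13 and 0.09 in the 3 ratios, on either side of 0, with a fitted ratio of 1.03-fold (log2 0.05, SE 0.13, interval -0.22 to 0.31, limma adjusted p = 0.760), and without ratio 2 it was at -0.0035. Sec2h was at -0.03, 0.17 and 0.10, with a fitted ratio of 1.06-fold (log2 0.08, SE 0.13, interval -0.18 to 0.34, limma adjusted p = 0.587). The count of members called, an adjusted p under 0.05, was 0 of 4 in either direction, and 0 of 4 reached an unadjusted p under 0.05. Among all 41 human probes the same fit called 9.76% higher and 2.44% lower, 5 probes in all, which became 33 without ratio 1 and 0 without ratio 3. The median of the 4 estimates was 0.09, beside 0.21 for all human probes, which ran from -0.46 for Arg1h, an arginine probe, to 0.71 for His1h, the histidine probe. The intervals allow changes from 0.861-fold to 1.24-fold for Cys1h and from 0.881-fold to 1.27-fold for Sec2h, so shifts within them were not excluded with 3 ratios. All 4 probes share the same SE because limma pooled the variance over the probes. Their own SDs over the 3 ratios were 0.09 for Met1h, 0.09 for Met2h, 0.12 for Cys1h and 0.10 for Sec2h (n = 3).

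On the dye control array each of the 4 probes read more strongly in Cy3 than the median human probe did. The log2 ratio was 0.26 for Cys1h, the third highest (rank 3) of 41, 0.23 for Met2h (rank 6), 0.18 for Met1h (rank 14) and 0.16 for Sec2h (rank 15), beside 0.11 for the median human probe and a range from -0.60 (Arg1h) to 0.30 (Thr1h, a threonine probe). Every one of the 16 spots of Met2h, Cys1h and Sec2h lay above the median human probe there, and 15 of 16 for Met1h. The spiked standards themselves ranged on this array from -0.35 for E.c. Lys-2 to 0.28 for Yeast Phe-3, which limits how well its zero is known. Subtracting the dye control did not bring them together. E.c. Lys-2 was then at 0.38, 0.34 and 0.34 in ratios 1 to 3 and E.c. Ala-5 at -0.19, -0.08 and -0.06, so the zero of the dye-subtracted scale is uncertain too.

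Subtracting the dye control moved Cys1h from rank 37 to rank 41, the lowest estimate of the human probes. Its log2 ratios became -0.36, -0.14 and -0.17, below 0 in 3 of 3 ratios, and its fitted ratio 0.860-fold (log2 -0.22, SE 0.13, interval -0.48 to 0.05, limma adjusted p = 0.432). Met2h followed with the second lowest estimate (rank 40), at -0.23, -0.15 and -0.06, also below 0 in 3 of 3 ratios, and a fitted ratio of 0.911-fold (log2 -0.13, SE 0.13, interval -0.40 to 0.13, limma adjusted p = 0.748). Neither passed the test, though Cys1h did with ratios 1 and 2 averaged (-0.21, limma adjusted p = 0.0456), and 0 of 4 members were called, against 7.32% of all human probes called higher and 0% called lower (3 probes in all, 19 without ratio 1 and 0 without ratio 3).

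Sec2h was at -0.19, 0.0022 and -0.07 with the dye control subtracted, and its fitted ratio was 0.944-fold (log2 -0.08, SE 0.13, interval -0.35 to 0.18, limma adjusted p = 0.789). Met1h stayed near 0, at -0.09, 0.02 and 0.09, with 1.01-fold (log2 0.02, SE 0.13, interval -0.24 to 0.28, limma adjusted p = 0.975), and was at -0.03 without ratio 3. The median of the 4 estimates was -0.11, beside 0.09 for all human probes. All ratios share the single dye control array, and its error is in none of these SEs.

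On the standards' scale the median human probe differed from ratio to ratio, at 0.05, 0.26 and 0.28 without and -0.09, 0.16 and 0.19 with the dye control subtracted. The probes were therefore also set against the median human probe of each array, a scale that shows change relative to the other tRNAs and not in total amount. On it Cys1h varied little between ratios. Uncorrected it was at -0.15, -0.13 and -0.19 (mean -0.16 ± 0.03, SD, n = 3). With the dye control subtracted it was at -0.30, -0.28 and -0.34 (mean -0.31 ± 0.03, SD, n = 3). Its 3 ratios lay below the median probe with or without that subtraction.

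Uncorrected, Cys1h was at 0.893-fold of the median probe and was not called (log2 -0.16, SE 0.07, limma adjusted p = 0.103), but was called without ratio 2 (-0.17, adjusted p = 0.0194) and with the ratios taken as independent, with no replicate block (-0.16, adjusted p = 0.0143). After subtraction of the dye control it was called lower, its ratio being 0.805-fold (log2 -0.31, SE 0.07, interval -0.45 to -0.17, limma adjusted p = 0.000688, lower in 3 of 3 ratios). Subtraction moves all 3 ratios of a probe by the same amount. The SEs on this scale are thus unchanged by it, and they and the p-values hold no error of the single dye control array. Met2h was at -0.05, -0.18 and -0.11 uncorrected (fitted log2 -0.12, SE 0.07, limma adjusted p = 0.305) and at -0.16, -0.30 and -0.23 with subtraction, where its 0.852-fold ratio was called lower (log2 -0.23, SE 0.07, limma adjusted p = 0.0146). Sec2h was at -0.08, -0.09 and -0.19 uncorrected (fitted log2 -0.13, SE 0.07, limma adjusted p = 0.234) and at -0.13, -0.14 and -0.24 with subtraction, where its 0.883-fold ratio was called lower (log2 -0.18, SE 0.07, limma adjusted p = 0.0448).

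Met1h was not called on this scale either. It was at 0.05, -0.06 and -0.02 uncorrected and at -0.02, -0.12 and -0.08 with subtraction (fitted log2 -0.08, SE 0.07, limma adjusted p = 0.482). In all, 0 of 4 members were called uncorrected, where 9.76% of the human probes were called higher and 9.76% lower, and 3 of 4 were called lower with subtraction, where the shares were 17.1% and 12.2%. The other lower calls there came from 2 of the remaining 37 probes. The lower calls of the members held without ratio 1, without ratio 2 and with all ratios, each fitted with no replicate block. They did not hold under all settings. Met2h (adjusted p = 0.0513) and Sec2h (adjusted p = 0.0756) lost theirs in limma when the corrected ratios were centred again after the subtraction, where Cys1h kept its own (log2 -0.32, adjusted p = 0.0124) as the only lower call among the human probes (2.44%, with 7.32% higher).

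The call of Cys1h was lost, at nearly the same log2 ratio, in 4 settings: with the mean of the spots (-0.32, limma adjusted p = 0.210), with channel medians (-0.34, adjusted p = 0.0725), with ratios 1 and 2 averaged because they share knockdown RNA 1 (-0.32, adjusted p = 0.0809) and without ratio 3 (-0.29, adjusted p = 0.278). It was at -0.31 without ratio 1 (adjusted p = 0.000322) and at -0.32 without ratio 2 (adjusted p = 1.27e-05). Fits with a ratio left out rest on 2 ratios, and limma pools their variance over the human probes. Their p-values therefore do not measure the replication of a single probe. With ratio 1 or ratio 2 left out no knockdown RNA is shared, so these fits had no replicate block. The fit that left out ratio 3 kept the block, so these fits differ in model as well as in ratios. Without ratio 3 Met2h was at -0.23 (adjusted p = 0.358) and Sec2h at -0.14 (adjusted p = 0.717), and neither was called. Over these settings the log2 ratio of Cys1h moved little, while its adjusted p crossed the threshold.

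Read in the separate channels, each member was lower in the knockdown RNAs than in the control RNAs once levels were set against the median human probe of the same channel. The log2 level of Cys1h was 0.65 and 0.77 in the knockdown RNAs and 0.89, 0.91 and 1.05 in the control RNAs, with no overlap. Met2h was at -0.49 and -0.47 against -0.41, -0.17 and -0.16, and control RNA 1 came closest to the knockdown RNAs. Met1h was at 1.11 and 1.07 against 1.14, 1.26 and 1.25. Here each channel had its own median probe. Read as uncorrected ratios against the median ratio, Met1h was at 0.05, -0.06 and -0.02, so in ratio 1 it was not lower. Sec2h was at -2.43 and -2.51 against -2.30, -2.18 and -2.14. For each of the 4 members the gap between the groups was smaller than the spread within the control RNAs.

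Such a lack of overlap with the knockdown lower was common, found for 31.7% of all human probes, and the opposite for 2 of the 41. Knockdown and control also differ in dye, and the part of each in the count of 4 of 4 members cannot be told apart. On the dye control array the level of Cys1h was higher in Cy3 (0.74) than in Atto635 (0.56), and so was that of Met2h, at -0.09 against -0.19, the opposite order to that of knockdown and control. Both Met1h (0.99 and 0.95) and Sec2h (-2.50 and -2.59) also read higher in Cy3 there.

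For the dim probe Sec2h the uncorrected values depended on the offset of 50 units that was added to both channels. Because Cy3 was brighter than Atto635, a constant added to both pulls the ratio of a dim probe towards 1 more than that of a bright one. With an offset of 0 Sec2h was at 0.28 on the standards' scale (limma adjusted p = 0.207) in place of 0.08, and at 0.02 against the median human probe (adjusted p = 0.847) in place of -0.13. In the deposited intensities 14 of its 16 spots in ratio 3 lay above the median human probe, as did 8 in ratio 1. In ratio 2, where a spot's channels did not vary together as elsewhere, 7 did. Its levels also overlapped between the groups at offset 0, with -2.53 and -2.67 in the knockdown RNAs and -2.46, -2.37 and -2.55 in the control RNAs.

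With the dye control subtracted the offset mattered less for Sec2h, at -0.08 on the standards' scale with either offset and at -0.21 against the median human probe with an offset of 0 (limma adjusted p = 0.0621). The brighter members moved by less than 0.05 in log2 on either scale, Cys1h to 0.06 and Met1h to 0.21 on the standards' scale without subtraction and Met2h to 0.14. Spot by spot, all 16 spots of Cys1h in ratios 1 and 3 and 14 of 16 in ratio 2 lay below the median human probe, and for Met2h these counts were 13, 16 and 16. Met1h had 5, 11 and 11 spots below it. The counts for ratio 2 divide Cy3 and Atto635 values that did not vary together as elsewhere, so they are not a reliable reading of single spots.

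Met1h read above Met2h in each ratio. Met1h minus Met2h was 0.09 in ratio 1, 0.13 in ratio 2 and 0.10 in ratio 3, averaging 0.11 ± 0.02 (SD, n = 3). The exact sign-flip p was 0.25, two-sided, the lowest value this test can take here. It treats the ratios as independent, although ratios 1 and 2 share knockdown RNA 1 and its Cy3 values, so that 2 knockdown RNAs stand behind the 3 differences. On the dye control the difference was -0.05, so that subtraction widened it to 0.14, 0.18 and 0.15 (average 0.16 ± 0.02, SD, n = 3, with the same exact p). That limit is of this test, and no model of the difference between the probes was fitted. Whether it lies between initiator and elongator tRNA cannot be told from the probe names.

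The authors' deposited ratios, which list 40 human probes and leave out Sec2h, put Cys1h at 0.801, 0.885 and 0.868, the lowest of 40 in ratios 1 and 3 and rank 36 in ratio 2. In the authors' deposited table Met2h was at 0.886, 0.882 and 0.965 with ranks 36, 38 and 37, and Met1h at 0.987, 1.03 and 1.05, while the median human probe was at 0.985, 1.11 and 1.14. The direction and scale of these ratios are not stated. Across 43 probes their log2 values correlated with Cy3 over Atto635 after dye subtraction at 0.968, 0.971 and 0.946, and without it at 0.662, 0.670 and 0.521, so that they were read as knockdown over control with the dye control divided out, and their centring remains unknown. In the limma fit of the authors' deposited table Cys1h was at 0.853-fold (log2 -0.23, SE 0.12, adjusted p = 0.270), Met2h at 0.918-fold (adjusted p = 0.590) and Met1h at 1.03-fold (adjusted p = 0.825). Centred on their median human probe, the deposited ratios gave Cys1h a log2 value of -0.35 and a lower call (limma adjusted p = 0.0153) and Met2h a value of -0.24 without one (adjusted p = 0.0645). As they derive from the same scans, they are no independent measurement.

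The 3 serine probes were examined beside Sec2h because selenocysteine tRNA is charged with serine. Ser2h was called higher uncorrected (log2 0.42, SE 0.13, limma adjusted p = 0.0167), while Ser1h (0.31, adjusted p = 0.0881) and Ser3h (0.19, adjusted p = 0.242) were not, so that 1 of 3 was called. With the dye control subtracted Ser2h was at 0.34, Ser1h at 0.15 and Ser3h at 0.09, and 0 of 3 were called, but Ser2h was called higher against the median human probe (0.25, limma adjusted p = 0.0144). Each serine estimate lay above that of Sec2h, at 0.08 and -0.08, on both scales, and these differences between probes were not tested. Sec2h had rank 36 of 41 on both, so most human probes lay above it and the order is not particular to serine. With an offset of 0 the uncorrected value of Sec2h was 0.28 in place of 0.08.

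By the smallest root mean square difference of the dye-subtracted log2 ratios over the 3 ratios, the probe closest to Cys1h was Met2h (0.10), followed by the leucine probe Leu6h (0.13). Leu6h (0.05) and the tryptophan probe Trp1h (0.05) were closest to Met2h. The glycine probe Gly2h (0.01) and the leucine probe Leu3h (0.03) were closest to Met1h, and the alanine probe Ala1h (0.04) and the isoleucine probe Ile2h (0.09) to Sec2h. Cys1h thus stood farther from its nearest neighbour than the other 3 members did from theirs.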

How the data were processed

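The authors deposited scanner tables of 2-colour arrays, with the intensity of each spot minus its local background in Cy3 and Atto635, per the file headers, and a table with a linear ratio per probe. The sources used here do not name the image software, probe sequences or a genome build. The members, lists and tests were chosen with earlier results of these data known.

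Background correction used normexp with an offset of 50 (limma 3.58.1, R 4.3.3). A probe's value was the median log2 ratio of its unflagged spots, and arrays were centred on the median of the 4 spiked standards. For dye-subtracted values the dye control, centred in the same way, was subtracted per probe. One model over all 41 human probes (lmFit, then eBayes) had knockdown RNA as its block, at a correlation of 0.5, which 3 ratios cannot estimate, and p-values were adjusted by Benjamini-Hochberg over the 41. Ratios 1 and 2 share 1 knockdown RNA and its Cy3 values. Cultures were grown separately for each experiment per the labels. The number of arrays limits the precision. Named probes are the members, the serine probes, the 2 nearest probes to each member and the extremes of each fit. The fit was tested on simulated data without dye subtraction, with planted changes larger than the members' log2 ratios on the centred scales. That test does not show how well changes of the members' size are recovered. Channel medians, centring again after subtraction and the alternatives tried on the scale of the median human probe were chosen after seeing the data.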

Additional observations from a re-analysis of the deposited data

How the results depend on the processing

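Alternatives to the uncorrected values on the standards' scale turned the sign of a member's log2 ratio with centring on the median human probe (Met1h -0.0093, Met2h -0.12, Cys1h -0.16, Sec2h -0.13) and with loess (Met2h -0.17, Cys1h -0.15, Sec2h -0.066). Without centring all 4 were called higher (1.15, 1.04, 0.99 and 1.03), where 40 of 41 probes were, since the brightness difference of the channels is then left in. Met1h was also called with ratios 1 and 2 averaged (0.21, limma adjusted p = 0.0226) and without ratio 1 (0.24, adjusted p = 0.00165). Leaving out each ratio gave 0.15 to 0.24 for Met1h, 0.04 to 0.12 for Met2h, -0.0035 to 0.11 for Cys1h (below 0 without ratio 2) and 0.03 to 0.13 for Sec2h, with 0 to 33 probes called, and the cause was not tested. The probes called, 5 as reported, were 8 centred on the median human probe, 12 without E.c. Lys-2, 11 without Yeast Phe-3, 2 with loess, 1 with the mean of the spots, 2 with median pixels in ratios 1 and 3 only (3 without ratio 2 alone) and 29 with ratios 1 and 2 averaged. With no replicate block the count was 21, and no member was called.

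With the dye control subtracted, Met2h, Cys1h and Sec2h stayed below 0 in all settings run. Met1h turned to -0.076 centred on the median human probe, to -0.081 centred on it again after subtraction, to -0.021 centred again on the standards, to -0.012 without E.c. Ala-5 and to -0.031 without ratio 3. Centred on the median human probe, Met2h (-0.23), Cys1h (-0.31) and Sec2h (-0.18) were called, as was Cys1h centred again after subtraction (-0.32) and with ratios 1 and 2 averaged (-0.21, limma adjusted p = 0.0456). Leaving out each ratio gave -0.031 to 0.056, -0.19 to -0.11, -0.27 to -0.16 and -0.13 to -0.03 for Met1h, Met2h, Cys1h and Sec2h, with 0 to 19 probes called. The probes called, 3 as reported, were 0 with offset 0, plain subtraction, no centring, the mean of the spots, median pixels in ratios 1 and 3 only (2 without ratio 2 alone) or without E.c. Ala-5, with 6, 6, 1, 4, 3 and 6 at an unadjusted p under 0.05. They were 1 with flagged spots kept or channel medians, 6 without E.c. Lys-2 and in the deposited ratios, 7 with loess, 8 with no replicate block, 11 with ratios 1 and 2 averaged and 12 centred on the median human probe.

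On the dye-subtracted scale of the median human probe, 12 probes were called as reported and 0 to 16 in the alternatives, and without subtraction 8 and 1 to 11. There Met2h, Cys1h and Sec2h lost their calls with the mean of the spots (-0.25, -0.32 and -0.16), channel medians (-0.25, -0.34 and -0.26) and ratios 1 and 2 averaged (-0.23, -0.32 and -0.19). Met2h and Sec2h lost theirs with offset 0 (-0.25 and -0.21) and centred again (-0.24 and -0.19), and Met2h in the deposited ratios (-0.24). With each ratio left out, the values ran from -0.26 to -0.20 for Met2h, -0.32 to -0.29 for Cys1h and -0.19 to -0.14 for Sec2h, with the calls lost without ratio 3. Without subtraction Sec2h turned to 0.017 with offset 0, and Met1h ran from -0.035 to 0.015 with each ratio left out, above 0 without ratio 2. The cause of these changes was not tested. Met1h minus Met2h ran from 0.08 to 0.16.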
